A study of Camellia sinensis var. assamica with 4 samples.

Results

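Pol IV and Pol V are plant-specific relatives of RNA polymerase II that act in RNA-directed DNA methylation (RdDM). Pol IV transcribes the silent target loci into short RNAs, which are made double-stranded and cut into small interfering RNAs, while Pol V makes scaffold transcripts at the same loci, to which AGO4 with its small RNA is guided and the methyltransferase DRM2 is brought in. Each enzyme has its own largest subunit, and the other subunits are common to several polymerases or are variants of subunits of RNA polymerase II. The genes described here are the 6 homologs of Arabidopsis Pol IV and Pol V subunits that were named for tea, out of 27554 genes with an expression value. They were taken by gene identifier, not by expression: 3 are assigned to Pol V (NRPE1, CSA002792; NRPE5, CSA008802; NRPE9B, CSA022741), 1 to Pol IV (NRPD1, CSA001027) and 2 to both enzymes (NRPD4/NRPE4, CSA033129; NRPD2/NRPE2, CSA013061).

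All values come from young leaf of Camellia sinensis var. assamica, a large-leaved tea, in 2 polyA-selected RNA-seq libraries (replicate 1 and replicate 2) of a single group, without any treatment, genotype or other tissue to set it against. The bisulphite sequencing of the same tissue was not analysed here. The unit is FPKM, fragments counted for a gene relative to its length and to the mapped fragments of that library. Levels of different genes can therefore be set side by side, but whether gene length still affected them was not tested. Neither the sample labels nor the description of the study says what plants the RNA-seq replicates came from, and every SD below is the spread between 2 libraries, which may be technical. The number of fragments per library is unknown. If low genes at the most common ratio had equal fragment counts, replicate 2 was 1.10 times as deep as replicate 1. The identity of the tissue could not be checked against leaf marker genes, because the values are listed by identifier without gene names.

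All 6 subunit genes were expressed in young leaf, and the 3 genes assigned to Pol V stood above the gene of Pol IV and above both shared genes in each library. NRPE5 was the highest with a mean FPKM of 23.3, and NRPD2/NRPE2, which is assigned to both enzymes, was the lowest with 3.42. Each of the 6 genes had an FPKM of at least 0.5 in both replicates, a level that 78.3% of all listed genes reached, so this count alone does not set the subunits apart from other genes. All 6 also passed the filter of a mean FPKM of 1 that was used for comparing the replicates.

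**Figure D1:**
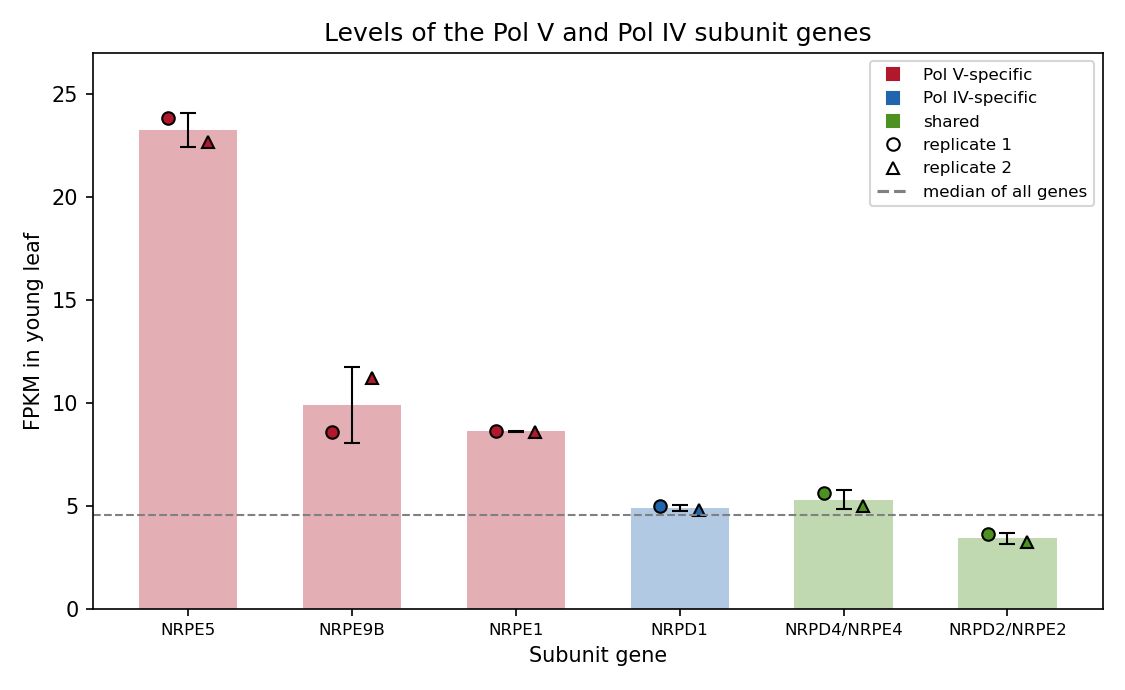
FPKM of the 6 subunit genes in young leaf, with bars for the mean, error bars for the SD (n = 2), circles for replicate 1 and triangles for replicate 2; the dashed line is the median of all genes, 4.55. The 3 Pol V genes lie between 8.58 and 23.8, above all values of NRPD1 and of the shared genes, which lie between 3.22 and 5.61.

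Among the genes of Pol V, NRPE1 encodes the largest subunit, which carries catalytic residues and a long C-terminal region that binds AGO4 in Arabidopsis. Its FPKM was 8.63 in replicate 1 and 8.58 in replicate 2, with a mean of 8.61 ± 0.0361 (SD, n = 2). This was the smallest spread of the 6 genes, at 0.420% of the mean. NRPE5 encodes the variant of the fifth subunit that distinguishes Pol V from the other polymerases in Arabidopsis. Its FPKM was 23.8 in replicate 1 and 22.7 in replicate 2, with a mean of 23.3 ± 0.820 (SD, n = 2). NRPE5 was thus over NRPE1 by a factor of 2.76 in replicate 1 and 2.64 in replicate 2.

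NRPE9B encodes a variant of the ninth subunit, a small protein that in Arabidopsis is needed for methylation through Pol V. Its class here is the one given in the study, and whether it also serves other polymerases in tea was not tested. Its FPKM was 8.58 in replicate 1 and 11.2 in replicate 2, with a mean of 9.89 ± 1.85 (SD, n = 2). The spread of 18.7% of the mean was the largest of the 6 genes, and NRPE9B was the only one of them with the higher value in replicate 2. Its values enclosed those of NRPE1, with a ratio of NRPE9B to NRPE1 of 0.994 in replicate 1 and 1.31 in replicate 2, so these neighbours in the order were not separated. NRPE9B stayed under NRPE5, which was 2.78 times as high in replicate 1 and 2.02 times as high in replicate 2.

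NRPD1 encodes the largest subunit of Pol IV and was the only gene assigned to Pol IV alone. Its FPKM was 5.001 in replicate 1 and 4.80 in replicate 2, with a mean of 4.90 ± 0.146 (SD, n = 2). The corresponding subunit of Pol V was higher in both libraries, since the ratio of NRPE1 to NRPD1 was 1.73 in replicate 1 and 1.79 in replicate 2 (1.76 for the means, SD of the library ratios 0.0449). Taken over the 3 genes of Pol V, the ratio of their median to NRPD1 was 2.02 for the means, with 1.73 in replicate 1 and 2.34 in replicate 2 (SD 0.431). This spread came with a change of the middle gene, which was NRPE1 in replicate 1 and NRPE9B in replicate 2. The Pol V median also mixes small subunits with a largest subunit, whereas NRPD1 is a largest subunit, so the genes differ in length.

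Both shared genes were in the lower part of the range. NRPD4/NRPE4 encodes the relative of the fourth subunit of RNA polymerase II, which belongs to the stalk of the enzyme. Its FPKM was 5.61 in replicate 1 and 4.97 in replicate 2, with a mean of 5.29 ± 0.454 (SD, n = 2). NRPD2/NRPE2 encodes the second-largest subunit, which forms the active centre together with NRPD1 in Pol IV and with NRPE1 in Pol V. Its FPKM was 3.61 in replicate 1 and 3.22 in replicate 2, with a mean of 3.42 ± 0.271 (SD, n = 2). The shared genes did not overlap, and NRPD4/NRPE4 was 1.56 times as high as NRPD2/NRPE2 in replicate 1 and 1.54 times in replicate 2.

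NRPD1 lay between the shared genes. It was over NRPD2/NRPE2 by a factor of 1.39 in replicate 1 and 1.49 in replicate 2. Against NRPD4/NRPE4 the ratio was 0.892 in replicate 1 and 0.965 in replicate 2. NRPD1 was therefore the lower one in each library, although the value of NRPD1 in replicate 1 was above that of NRPD4/NRPE4 in replicate 2, so that the levels overlapped between libraries. The ratio of NRPD1 to the median of the shared genes was 1.13 for the means (1.09 and 1.17 in the libraries, SD 0.0605), whereas the ratio of the median of the Pol V genes to the median of the shared genes was 2.27 (1.87 and 2.74, SD 0.609).

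**Figure D2:**
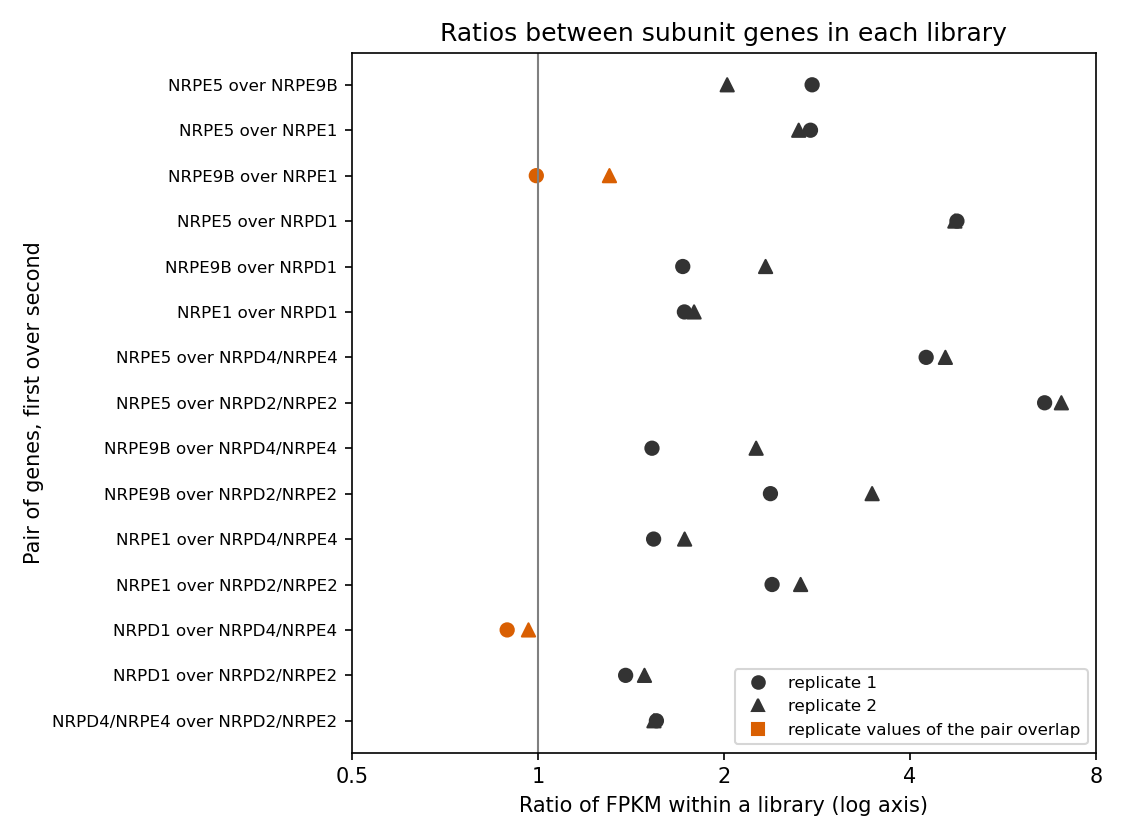
Ratio of FPKM within each library for all 15 pairs of subunit genes, the first gene over the second, on a log axis; circles are replicate 1, triangles replicate 2, and orange marks pairs whose replicate values overlap. NRPE9B over NRPE1 lies on both sides of 1, and NRPD1 over NRPD4/NRPE4 lies just under 1, while the other 13 pairs lie to the right of 1.

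The order by mean FPKM was NRPE5, NRPE9B, NRPE1, NRPD4/NRPE4, NRPD1 and NRPD2/NRPE2. Of the 15 pairs, 14 had the same order in both libraries, and the replicate values of 13 did not overlap. Such separation was common in this table, since 91.2% of all pairs of listed genes and 92.3% of the pairs among the 37 methylation pathway genes did not overlap either. All 9 pairs of a Pol V gene with NRPD1 or a shared gene were among the separated ones. Ratios were more than 2-fold in both libraries for 7 pairs, and 5 of these held NRPE5. Ratios of this size in the same direction in both libraries were found for 57.5% of the pairs among the 37 pathway genes and for 73% of all pairs of listed genes, so such pairs were not more frequent among the subunits. The widest ratio was that of NRPE5 to NRPD2/NRPE2, with 6.61 in replicate 1 and 7.04 in replicate 2. An exact two-sided sign-flip permutation test over the libraries cannot give a p under 0.5 with 2 libraries, so none of the 15 pairs or of the 5 ratios between classes could pass a threshold of 0.05, and the ratios stand as descriptions of these libraries.

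The second-largest subunit is part of both enzymes, so the RNA level of its gene was set beside the sum for both largest subunits. Protein was not measured, so this ratio does not give the amounts of the subunits or which of them is limiting. NRPE1 and NRPD1 together had an FPKM 3.78 times that of NRPD2/NRPE2 in replicate 1 and 4.15 times in replicate 2 (3.95 for the means, SD 0.261). The 3 genes for catalytic subunits (NRPE1, NRPD1, NRPD2/NRPE2) had a median of 4.90. The 3 genes for the smaller subunits (NRPE5, NRPE9B, NRPD4/NRPE4) had a median of 9.89, with a range from 5.29 to 23.3 that overlapped the range of the catalytic ones, 3.42 to 8.61. This division by function was made after the values were seen. It also separates shorter proteins from longer ones, and whether gene length affected the contrast was not tested. Of the summed FPKM of the 6 genes, the 3 Pol V genes held 74.3% in replicate 1 and 76.6% in replicate 2. NRPD1 held 9.05% and 8.65%, and the 2 shared genes held 16.7% and 14.8%. These shares also reflect the unequal number of genes per class, since a class with more genes holds more at equal levels. NRPE5 alone held 43.1% and 40.9%.

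The rank of the subunit genes among all genes is given with every listed gene included, also those near 0. NRPE5 was at percentile 85.7 of the 27554 genes by mean FPKM, with 3926 genes above it, and its mean was 5.12 times the median of all genes. NRPE9B was at percentile 68.9 and NRPE1 at 65.4. NRPD4/NRPE4 was at percentile 53.5, NRPD1 at 51.6 and NRPD2/NRPE2 at 44.1, the only one of the 6 under the median of all genes. The median percentile of the 6 genes was 59.5 (SD 1.08 between the libraries), where the median over all genes is 50 by construction. When the genes were ranked only among those whose mean reached FPKM 0.5, the median percentile of the 6 genes was 50.7, and among those that reached FPKM 1 it was 46.0. In the ranking from FPKM 1 on, NRPE5 was at percentile 81.0, NRPE9B at 58.6 and NRPE1 at 53.9. NRPD4/NRPE4 was then at 38.0, NRPD1 at 35.6 and NRPD2/NRPE2 at 25.5, so the Pol IV gene and both shared genes lay in the lower part of the genes with that level.

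The percentiles were steady between the libraries for all genes but one. NRPE9B was at percentile 65.5 in replicate 1 and 71.9 in replicate 2. For the other 5 genes the percentiles of replicate 1 and replicate 2 were closer, from 65.7 and 65.5 for NRPE1 to 55.2 and 52.2 for NRPD4/NRPE4. The genes were also sorted into the 5 expression groups that the study used, with genes under FPKM 0.5 in the first and all others ranked and cut into 4 equal parts. NRPE5 fell into the fifth and highest group, NRPE9B and NRPE1 into the fourth, and NRPD1 and both shared genes into the third, where each of these groups held 20.6% of all genes. Each of the 6 genes was in the same group in both replicates, as were 83.3% of all genes.

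**Figure D3:**
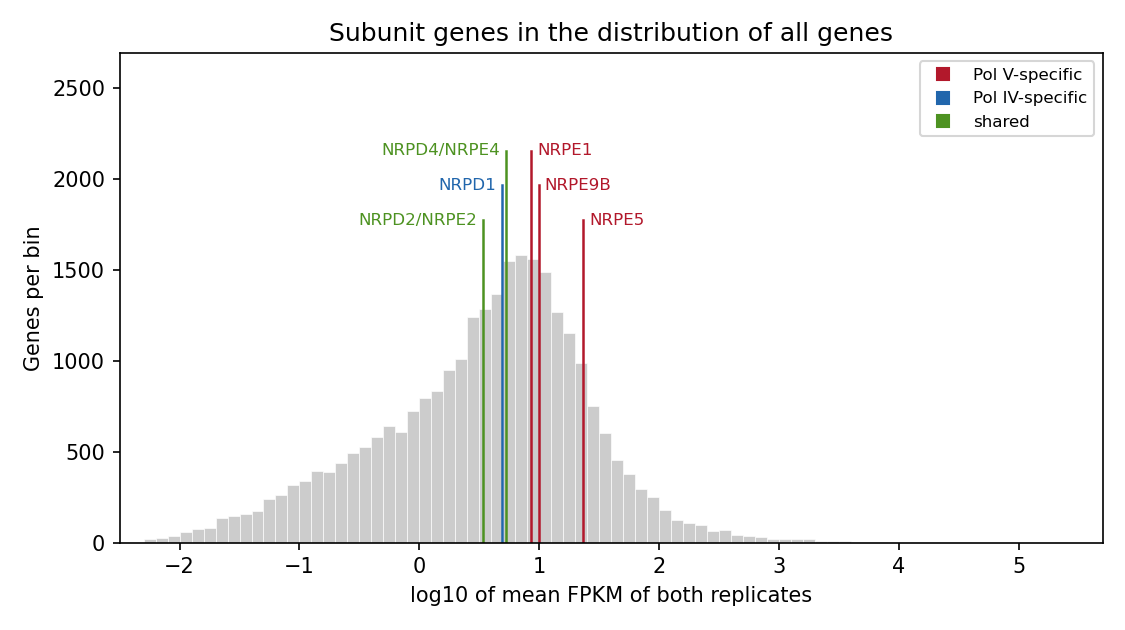
Number of genes by log10 of their mean FPKM in young leaf over all 27554 genes (grey bars), with a line for each subunit gene. NRPD2/NRPE2, NRPD1 and NRPD4/NRPE4 stand near the median of all genes (FPKM 4.55), to the left of the peak of the bars. NRPE1 and NRPE9B stand just to the right of the peak, and NRPE5 on the falling right side at percentile 85.7.

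None of the 6 genes differed more than 2-fold between the replicates in FPKM + 1, whereas 3.76% of the 20676 genes whose mean reached FPKM 1 did. With 6 genes, a share of this size would be less than 1 gene. The difference in log2(FPKM + 1), replicate 1 minus replicate 2, was 0.01 for NRPE1, 0.07 for NRPE5 and -0.35 for NRPE9B. It was 0.05 for NRPD1, 0.15 for NRPD4/NRPE4 and 0.13 for NRPD2/NRPE2. The median size of the difference over the 6 genes was 0.10, beside 0.14 over the 20676 genes. The difference of NRPE9B was larger in size than that of 81.3% of these genes, and that of NRPE1 was larger than that of 3.10%. Replicate 1 was the higher one for 5 of the 6 genes and for 48.3% of the 20676 genes. After each library was scaled to the same sum (TPM), it was the higher one for only 2 of the 6 and for 34.8%. After median ratio scaling it was the higher one for 5 of the 6 and for 49.9%, much as without scaling. Under TPM the direction changed for NRPE1, NRPE5 and NRPD1, and it stayed the same for NRPE9B and both shared genes. The change went with a shift of the whole library, as TPM moved the median difference over the 20676 genes from -0.009 to -0.079.

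**Figure D4:**
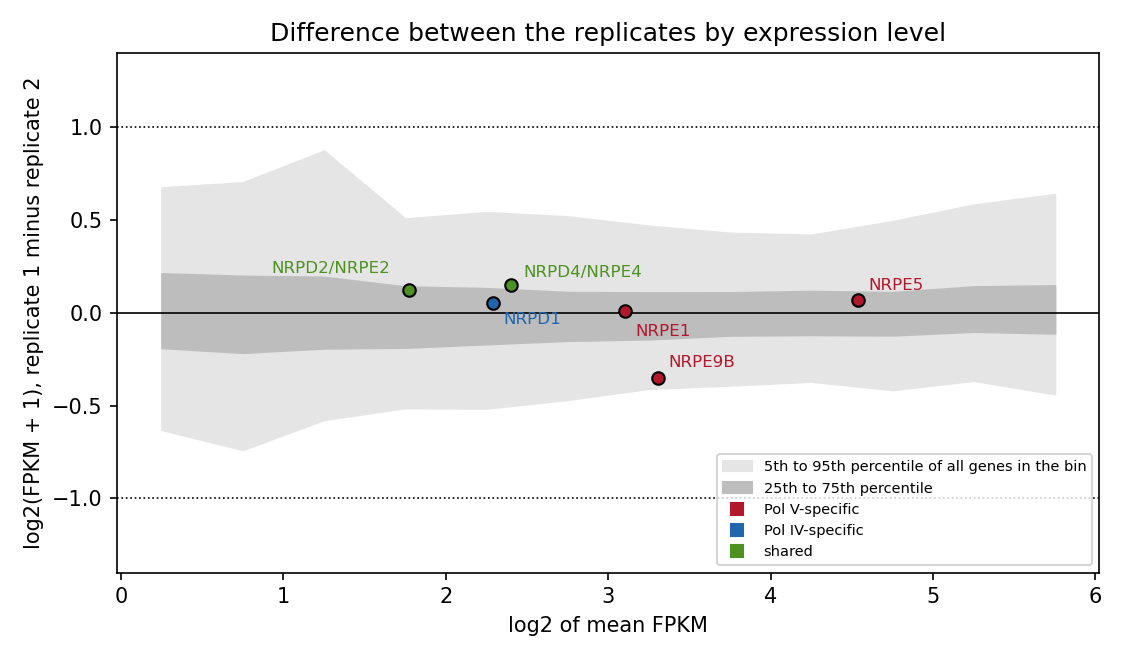
Difference between the replicates in log2(FPKM + 1), replicate 1 minus replicate 2, against log2 of the mean FPKM; the dark band runs between the quartiles of all genes in bins of expression level, and the light band covers all but the outer tails, and dotted lines mark 2-fold. NRPE9B, at -0.35, lies near the lower edge of the light band, and the other 5 genes lie between 0.01 and 0.15.

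Repeated values were looked for as a sign of few fragments on a short gene, because whole numbers of fragments over equal lengths give equal FPKM. No other listed gene had the same value as any of the 6 genes in either replicate, which also holds for 80.8% of the genes whose mean reached FPKM 1, so it does not set the subunits apart. Only uniquely mapped alignments were kept in making the values, so fragments that fit a subunit gene and a close copy equally well were not counted; NRPE5, NRPE9B and NRPD4/NRPE4 have close relatives among the subunits of RNA polymerase II in Arabidopsis. Whether such copies lowered a value was not tested.

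The genes that act beside Pol IV and Pol V were taken from the list of 31 other methylation genes named for tea. The median FPKM was 6.95 over the 6 subunit genes and 4.77 over the 31 others, which ranged from 0.988 to 57.4. None of the 31 others differed more than 2-fold between the replicates either. NRPE5 was second among all 37 genes and had 1 of the 31 others above it in both libraries, AGO4, the Argonaute protein that carries the small RNAs to Pol V transcripts. NRPE1 had 11 of the 31 above it in both libraries, NRPD1 had 15, NRPD4/NRPE4 had 13 and NRPD2/NRPE2 had 19. NRPE9B had 7 above it and 20 below it in both libraries, and for 4 genes the order changed between libraries.

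**Figure D5:**
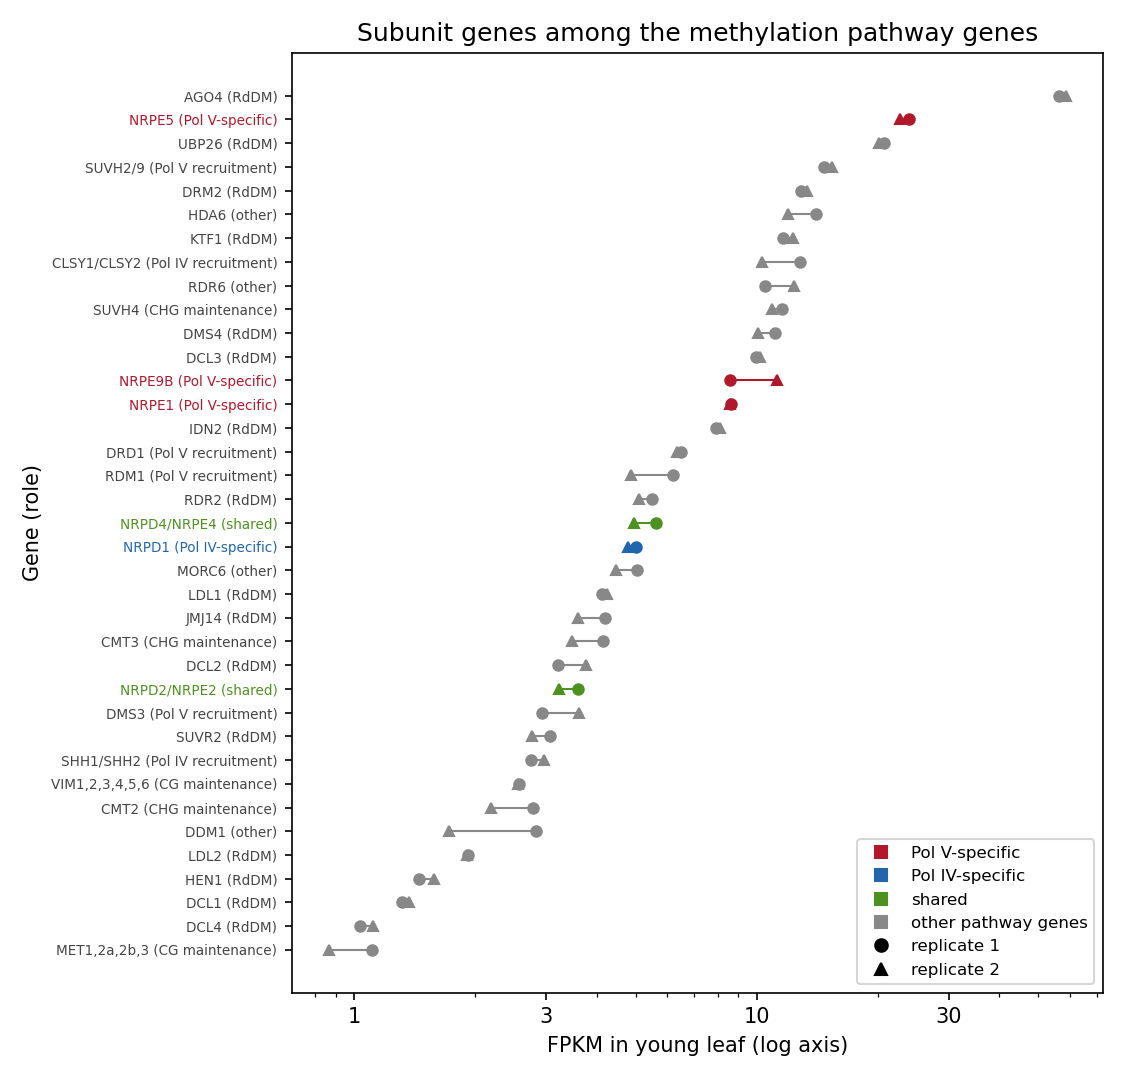
FPKM of the 37 methylation pathway genes in replicate 1 (circles) and replicate 2 (triangles) on a log axis, ordered by mean, with the subunit genes in colour. NRPE5 is second from the top under AGO4, NRPE9B and NRPE1 are next to each other at ranks 13 and 14, and NRPD4/NRPE4 and NRPD1 follow each other at ranks 19 and 20.

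On the side of Pol IV, NRPD1 was close to RDR2, the RNA-dependent RNA polymerase that works in one complex with Pol IV and makes its transcripts double-stranded. The FPKM of RDR2 was 5.50 in replicate 1 and 5.11 in replicate 2, and the ratio of NRPD1 to RDR2 was 0.909 and 0.939. This closeness was not particular to the pair, since MORC6 was nearer in level to NRPD1, and RDR2 was nearer to NRPD4/NRPE4. Of the factors that recruit Pol IV, NRPD1 was lower than CLSY1/CLSY2, a chromatin remodeller (ratio 0.390 in replicate 1 and 0.466 in replicate 2), and higher than SHH1/SHH2, a reader of histone H3 methylation (1.82 and 1.62).

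On the side of Pol V, NRPE1 was higher than 3 of the 4 genes for its recruitment in both libraries. It was also higher than 20 of all 31 other pathway genes in both, so this count does not set the recruitment genes apart. The ratio of NRPE1 was 1.33 and 1.35 to DRD1, a chromatin remodeller, 2.95 and 2.38 to DMS3, an SMC-like protein, and 1.39 and 1.76 to RDM1, which forms a complex with both. The exception was SUVH2/9, the proteins that bind methylated DNA and draw Pol V to it, where the ratio was 0.588 in replicate 1 and 0.557 in replicate 2. Among genes acting at Pol V transcripts, KTF1, DRM2 and AGO4 were above NRPE1 in both libraries, while IDN2, an RNA-binding protein of the pathway, was below it with 7.94 in replicate 1 and 8.10 in replicate 2. The ratio of NRPE1 was 0.742 and 0.696 to KTF1, an elongation factor relative that binds AGO4. It was 0.672 and 0.643 to DRM2, the de novo methyltransferase, and 0.154 and 0.147 to AGO4.

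For each subunit gene, the pathway gene most like it was found among the 31 others as the one with the smallest Euclidean distance of log2(FPKM + 1) over the 2 libraries. NRPD4/NRPE4 and RDR2 were closest, with a distance of 0.04, followed by NRPD1 and MORC6 with 0.08 and NRPE1 and IDN2 with 0.13. The distance was 0.18 for NRPD2/NRPE2 and CMT3, 0.23 for NRPE9B and DCL3 and 0.25 for NRPE5 and UBP26. With 1 tissue, this likeness is one of level only.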

How the data were processed

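Young leaf RNA was sequenced as paired-end reads of 150 bp from polyA-selected libraries. The labels speak of 3 pooled libraries, while 2 RNA-seq samples are listed. The authors mapped reads to the tea genome with TopHat2 2.1.0, kept uniquely mapped alignments, quantified genes with Cufflinks at its default settings, and deposited the FPKM of each replicate with their mean. The Cufflinks version and the annotation are not given in the sources used here. A count model does not apply to FPKM, and without fragment numbers no counting interval could be given. Of the 27554 identifiers, 0 matched the RefSeq table of Camellia sinensis, so no coordinates, lengths or sequences are shown.

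Genes were named after the list of methylation genes in the study, with its classes. The members, the lists and the rules were chosen with earlier results of these data known. The text names the 6 subunit genes, the 31 other genes of that list by role and, for each subunit gene, the nearest of these. Levels are means ± SD of 2 libraries. Ratios were taken within each library and from the means, with an exact two-sided sign-flip permutation test (p adjusted by Benjamini-Hochberg over 15 pairs). Replicates were compared as log2(FPKM + 1), which understates differences of low genes, among genes with a mean of at least 1. Percentiles count ties equally to both sides. The relative depth is the mode of replicate 1 over replicate 2 among 4647 genes under FPKM 1, assuming equal fragment counts there. Alternatives were pseudocounts of 0.1 and 0.01, TPM (sum 1000000), a geometric mean of FPKM + 0.01, median ratio scaling, filters at 0.5 and 1, and leaving out each replicate. Functions were tested on simulated data. Python 3.11.15, numpy 2.4.6, pandas 2.3.3 and matplotlib 3.10.9 were used.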

Additional observations from a re-analysis of the deposited data

How the results depend on the processing

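The 5 ratios between classes moved by less than the SD between the libraries under TPM, the geometric mean and median ratio scaling. TPM and median ratio scaling multiply a whole library by 1 factor, which cancels in a ratio within that library. They could therefore change only the weight of each library in the means, and the small shifts under them test nothing. Leaving out 1 replicate gave 1.73 to 1.79 for NRPE1 to NRPD1, 1.73 to 2.34 for the median of Pol V genes to NRPD1, 1.87 to 2.74 for that median to the shared genes, 1.09 to 1.17 for NRPD1 to the shared genes and 3.78 to 4.15 for both largest subunits to NRPD2/NRPE2; with 2 libraries such shifts test nothing. The median percentile of the 6 genes depended on the genes ranked, with 50.7 among genes whose mean reached FPKM 0.5 and 46.0 among those that reached FPKM 1, and was 58.8 to 60.4 with 1 replicate left out. The count of 0 genes past 2-fold between the replicates held under pseudocounts of 0.1 and 0.01, TPM and median ratio scaling. Under TPM the mean moved beyond the replicate SD for 3 of the 6 genes, NRPE1, NRPE5 and NRPD1, which had the smallest SD relative to the mean. TPM rescales each whole library and lowered all 6 means, so this count reflects the spread between the replicates and tests nothing about single genes. No paired analysis was possible because the RNA-seq values form 1 group and the bisulphite samples with the same replicate numbers have no values here. As the depth is unknown, counting error cannot be given for differences as small as that of NRPD1 and NRPD4/NRPE4.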
